A study of Mus musculus with 24 samples.

Results

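The genes of the cytosolic ribosomal proteins, the protein components of the ribosomes that translate nuclear-encoded mRNAs, were followed across 24 mouse liver arrays. Members were chosen by symbol, as genes named Rpl, Rps, Rplp, Rpsa or Fau, without their pseudogenes, their kinases or the mitochondrial ribosomal proteins, and each had to own at least 1 probe set that names no other gene. This gave 50 genes, 26 of the large and 24 of the small subunit, of 18193 genes with such a probe set. A further 28 ribosomal protein genes are named only on probe sets shared between several genes, and they are treated as uncertain because near-identical copies cannot be told apart there. The members' own probe sets may also bind such copies, which was not tested. Of the 50 used, the brightest of each member, 13 have names ending in _x_at and 1 in _s_at. These endings are given where probes can match other transcripts.

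The livers came from male C57BL6/J mice fed a Western diet, a high-fat diet with sucrose in the drinking water, from 8 weeks of age. Groups of 8 mice received siKeap1-1, siKeap1-2 or siControl, which are chemically modified siRNAs given into the tail vein at 1 mg per kg once a week for 7 weeks. siKeap1-1 and siKeap1-2 target Keap1, siControl is a scrambled sequence, and lipid nanoparticles carried all of them mainly to hepatocytes. Keap1 in the other cells of the liver was not the main target. By the methods, each group held fed and fasted mice in equal number. The labels do not give the state of each mouse, so it was not used here, and its part in the spread within groups and in any division of the arrays was not tested. Whole liver RNA was hybridised, so that fewer cells of a type and less RNA per cell cannot be told apart. Both Keap1 comparisons share the same 8 siControl arrays.

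Keap1 holds the transcription factor Nrf2 in the cytoplasm and marks it for degradation, and its loss lets Nrf2 switch on genes of detoxification and redox balance. Ribosomal proteins assemble with ribosomal RNA (rRNA) in the nucleolus into a large subunit, which joins amino acids, and a small subunit, which decodes mRNA. Their mRNAs are abundant in most cells, begin with a run of pyrimidines known as the 5′ terminal oligopyrimidine (TOP) tract, and are controlled to a large part in translation, downstream of mTOR. Arrays measure mRNA level only, and translation was not measured.

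The region around the transcription start is shown for the members that recur below, because it carries the TOP tract of this gene family. Sequences are RefSeq's, build GRCm38.p6, from 10 bases before the annotated start to 20 bases from it on, 5′ to 3′ on the gene's strand, and capitals mark each unbroken run of at least 5 bases that are C or T. Rps19 has 3 annotated starts, and the one farthest upstream is shown.
Rps19: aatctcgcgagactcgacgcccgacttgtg
Rpsa: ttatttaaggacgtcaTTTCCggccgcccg
Rpl37a: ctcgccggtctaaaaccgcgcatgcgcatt
Rpl7a: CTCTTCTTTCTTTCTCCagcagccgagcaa
Rps10: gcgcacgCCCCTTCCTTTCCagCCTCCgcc
Rps6: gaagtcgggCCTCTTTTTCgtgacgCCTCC
These windows lie at chr7:24884582-24884611, chr9:120127756-120127785, chr1:72711250-72711279, chr2:26910797-26910826, chr17:27635225-27635254 and chr4:86857348-86857377, the last pair on the minus strand. Rpl7a has the longest such run of the windows shown, 17 bases across the annotated start. Rps10 has one of 13 bases and Rps6 one of 10 bases. Rps19 and Rpl37a have none in the windows shown, while Rps19 has such a run at another of its 3 annotated starts.

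Of the 50 members, 44 matched a promoter sequence, which spans 250 bases before to 50 bases after a start. Rpl7, Rpl8, Rps4l, Rps14, Rps20 and Rps29 were not among them. A run of at least 5 C or T bases within the 30-base window, at any annotated start, was present in 33 of the 44 (75%), against 50.5% of 27025 genes in the same table. The letters CCGGAAG, a core recognised by Ets-type factors such as GABP, occurred on either strand in 21 of the 44 promoters (47.7%) and in 9.93% of all genes. The letters TGACNNNGC, the core of the antioxidant response element bound by Nrf2, occurred on either strand in 10 of the 44 (22.7%) and in 14% of all genes. The 10 were Rpl13a, Rpl14, Rpl22l1, Rpl3l, Rplp0, Rps16, Rps25, Rps28, Rps3 and Rps6, and neither Rps19 nor Rpsa held them. A match is only a description of the letters in the window.

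Signals were log2 values normalised by robust multi-array averaging (RMA), and they were compared with limma over 45037 probe sets, with Benjamini-Hochberg adjustment over all of them. A gene was called at an adjusted p under 0.05, and each member was represented by its brightest probe set of its own. Keap1 signal spanned 7.21 to 7.93 in siKeap1-1 livers, 8.03 to 8.59 in siKeap1-2 livers and 9.33 to 10.03 in siControl livers, without overlap. The Nrf2 target Nqo1 spanned 10.98 to 11.45 in siKeap1-1 livers, 10.61 to 11.25 in siKeap1-2 livers and 8.71 to 9.42 in siControl livers. The mean of 5 hepatocyte markers, Apob and Apoa1 among them, stayed within 14.57 to 14.65 in siKeap1-1 livers, 14.58 to 14.65 in siKeap1-2 livers and 14.63 to 14.67 in siControl livers. Of the markers of other cell types, the macrophage gene Vsig4 was lower with siKeap1-1 (-0.60) and Marco was higher with siKeap1-2 (1.49). Sox9, of bile duct cells, was higher with both (0.87 and 0.96). Other markers of these lists went both ways. Of the 5 Kupffer cell markers, 2 lay above and 3 below siControl with each Keap1 siRNA. Of the 4 bile duct markers, 2 lay above and 2 below with siKeap1-1 (median 0.10). With siKeap1-2, 1 lay above and 3 below (median -0.35). The mean of the 5 Kupffer cell markers spanned 9.52 to 10.82 in siKeap1-1 livers, 9.85 to 11.10 in siKeap1-2 livers and 9.91 to 10.92 in siControl livers, and that of the 5 stellate cell markers 9.26 to 10.49, 9.30 to 10.21 and 9.26 to 9.91, so that these groups overlapped. The mean of the 4 bile duct markers also overlapped between groups. It spanned 6.96 to 7.55 in siKeap1-1 livers, 6.84 to 7.38 in siKeap1-2 livers and 6.73 to 7.47 in siControl livers. The part of other cells in the values below was not tested. No 2 arrays held identical values.

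Most members gave signals near the top of the array. The mean over 24 arrays was above 12 for 38 members, which lie at or above the 94.8th percentile of all probe sets, and above 14 for 21 of them, where the highest single value of any probe set was 15.2. Signal on an array levels off near its top, which can shrink differences there, and the size of this effect on the members was not tested. At the lower end, 9 members had a mean under 9, namely Rps16, Rpl39l, Rpl3l, Rpl37, Rpl39, Rps27, Rpl12, Rpl14 and Rps4l. For 3 of them, Rps16 (2.94), Rpl39l (3.85) and Rpl3l (5.29), the mean lay below the median of all probe sets, 5.87. Rps16 is a core protein of every small subunit, so that its dim probe set cannot be read as its abundance, and signals of different probe sets were not compared as levels of different genes.

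The livers of 1 group resembled each other closely in these genes. The median standard deviation within groups was 0.053 log2 units over the 38 bright members and 0.065 over all 50, against 0.20 over all probe sets. The lowest was 0.027 for Rpl38, a large subunit protein at the rim of the exit tunnel, and the highest 0.39 for the dim Rpl39l. Bright probe sets in general varied less: over all probe sets with a signal from 14 to 15, the median was 0.050, and from 12 to 13 it was 0.12. Rpl22l1, a paralog of Rpl22, varied most among the bright members, with a standard deviation of 0.19. After the group means were removed, pairs of bright members had a mean correlation of 0.39 over the 24 arrays, and 87.8% of the pairs lay above 0, while the mean over all probe sets was 0.011. That last mean covers probe sets of every signal, and none was made over bright probe sets alone. The correlation can therefore not be called particular to these genes. The points share the array, its RNA and its normalisation, and no test was made of these correlations.

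**Figure D1:**
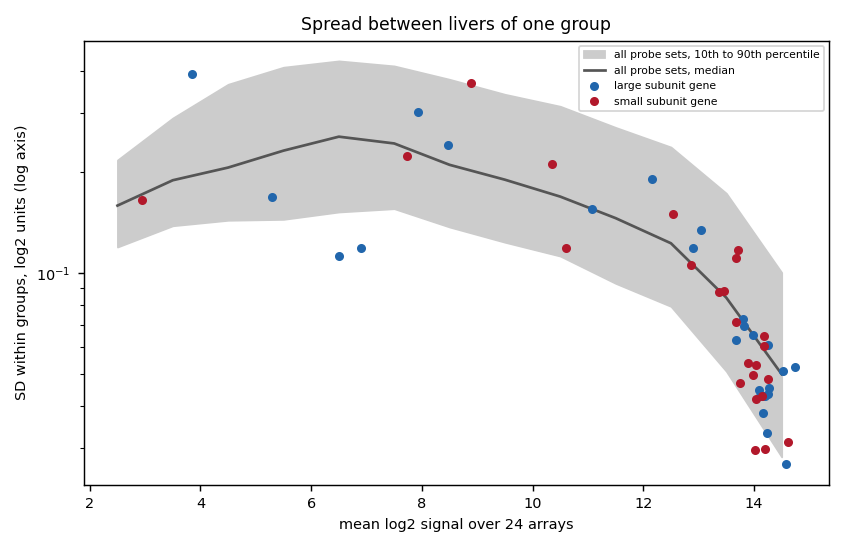
Standard deviation between livers of 1 group (vertical, log2 units on a log axis) against the mean log2 signal over 24 arrays (horizontal) for the 50 members, large subunit in blue and small subunit in red. The line is the median and the grey band the 10th to 90th percentile of all probe sets in bins of 1 log2 unit; most members sit at the bright, low-spread end, with Rpl38 lowest at 0.027.

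With siKeap1-1, 2 members passed the test against siControl, Rps19 and Rpsa, both higher and both of the small subunit. That is 4% of the 50, where 8.99% of all probe sets and 9.49% of all genes by their brightest probe set were called. With siKeap1-2, 0 of the 50 passed, against 6.1% of all probe sets and 6.6% of genes. Between siKeap1-1 and siKeap1-2, 0 of the 50 passed, and 0.162% of probe sets and 0.242% of genes did. At an unadjusted limma p under 0.05, 9 members with siKeap1-1, 5 with siKeap1-2 and 1 (Rpsa) between the Keap1 siRNAs differed, all of them higher in the group named first. Here and below, the share of all genes at this unadjusted threshold, or with a value above 0, was not counted. Such counts of members or listed genes are a description with no background beside them.

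Differences were small and mostly upward. The median over the 50 members was 0.048 on the log2 scale with siKeap1-1, against 0.014 over all genes, and 0.037 with siKeap1-2, against -0.0073. The signal was above that of siControl in 39 members with siKeap1-1 and in 36 with siKeap1-2. The 26 large subunit genes had a median of 0.040 with siKeap1-1 and 0.045 with siKeap1-2, and the 24 small subunit genes 0.058 and 0.034. The siKeap1-1 differences ran from -0.16 (Rpl22l1) to 0.25 (Rps19), the siKeap1-2 differences from -0.22 (Rpl12) to 0.18 (Rps19), and those of siKeap1-1 minus siKeap1-2 from -0.14 (Rps16) to 0.22 (Rpl12). The 95% interval of the difference stayed within 1.5-fold for all 50 members in each comparison, and within 1.2-fold for 38, 40 and 41 of them. The median signal of the 50 members in an array spanned 13.78 to 13.97 in siKeap1-1 livers, 13.76 to 13.87 in siKeap1-2 livers and 13.72 to 13.86 in siControl livers, so that the groups overlapped.

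**Figure D2:**
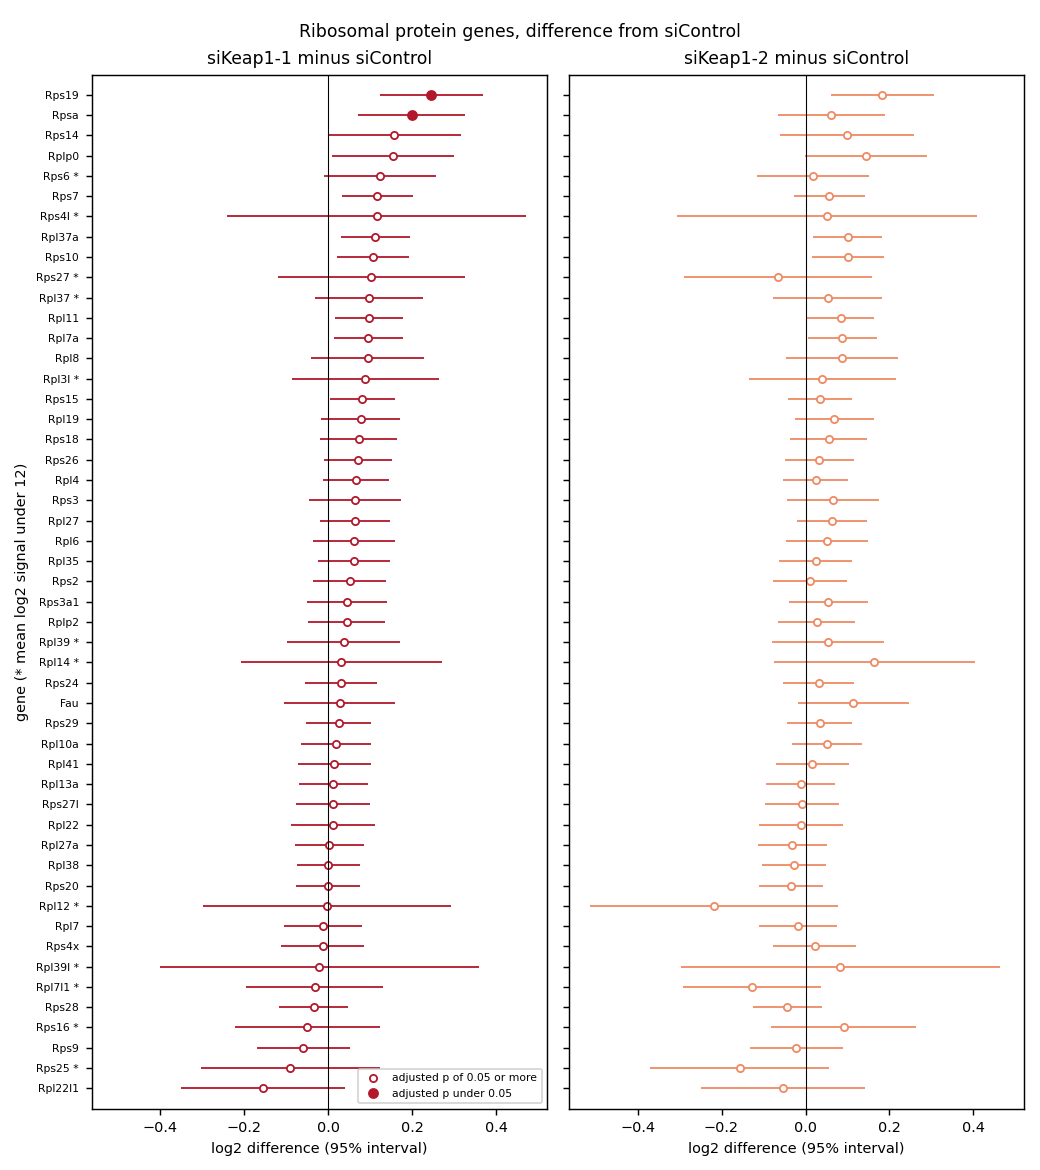
Log2 difference from siControl with its 95% interval (horizontal) for each of the 50 members (vertical, ordered by the siKeap1-1 difference), siKeap1-1 at the left and siKeap1-2 at the right, 8 arrays a group. Filled points passed an adjusted p of 0.05 and are Rps19 and Rpsa at the left only; stars mark genes with a mean signal under 12.

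The call depends on how the spread of each gene is estimated. limma moves each gene's variance toward a common value, and over all probe sets the spread was larger than in the bright members, as given above. When the common value was allowed to follow the signal (trend and robust moderation), 8 members passed with siKeap1-1, all higher, and 5 with siKeap1-2, all higher, while the share of all probe sets called was 9.46% and 6.19%. Of the members, this made 16% and 10%, and by genes 10.4% and 6.97% were called. The 8 were Rpl11, Rpl37a, Rpl7a, Rps7, Rps10, Rps15, Rps19 and Rpsa, and the 5 were Rpl11, Rpl37a, Rpl7a, Rps10 and Rps19. The differences themselves were the same in both fits, and between siKeap1-1 and siKeap1-2 the count stayed at 0.

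Rps19 is a head protein of the small subunit needed for its maturation, and loss of a copy causes Diamond-Blackfan anaemia in humans. Its signal had a lowest, median and highest value of 12.81, 12.94 and 13.21 with siKeap1-1, 12.83, 12.88 and 12.99 with siKeap1-2, and 12.57, 12.71 and 12.94 with siControl. The groups overlapped, since the highest siControl array reached into the range of both others, and 4 of 8 siKeap1-1 arrays lay above every siControl array. The difference was 0.25 ± 0.060 (SE) with siKeap1-1, a 1.19-fold higher signal (limma, adjusted p = 0.00992), and 0.18 ± 0.060 with siKeap1-2 (adjusted p = 0.0683).

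Rpsa, the small subunit protein at the mRNA exit side, also known as the laminin receptor, had 13.60, 13.82 and 13.98 with siKeap1-1, 13.49, 13.64 and 13.76 with siKeap1-2 and 13.44, 13.58 and 13.74 with siControl as lowest, median and highest values. With siKeap1-1, 5 of 8 arrays lay above all siControl arrays. The difference was 0.20 ± 0.062 (SE) with siKeap1-1, 1.15-fold (adjusted p = 0.0426), and 0.062 ± 0.062 with siKeap1-2 (adjusted p = 0.631). Between siKeap1-1 and siKeap1-2 it was 0.14 ± 0.062 (adjusted p = 0.495), so that a difference in response to the siRNAs was not shown. Rpsa was called by a narrow margin: leaving out any 1 of 11 arrays brought its adjusted p to between 0.0504 and 0.0792. These were siKeap1-1 replicates 1, 3, 5, 6 and 7, siKeap1-2 replicate 8 and siControl replicates 1, 2, 3, 5 and 8. Rps19 stayed under 0.05 with siKeap1-1 whichever array was left out, with differences between 0.21 and 0.28.

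**Figure D3:**
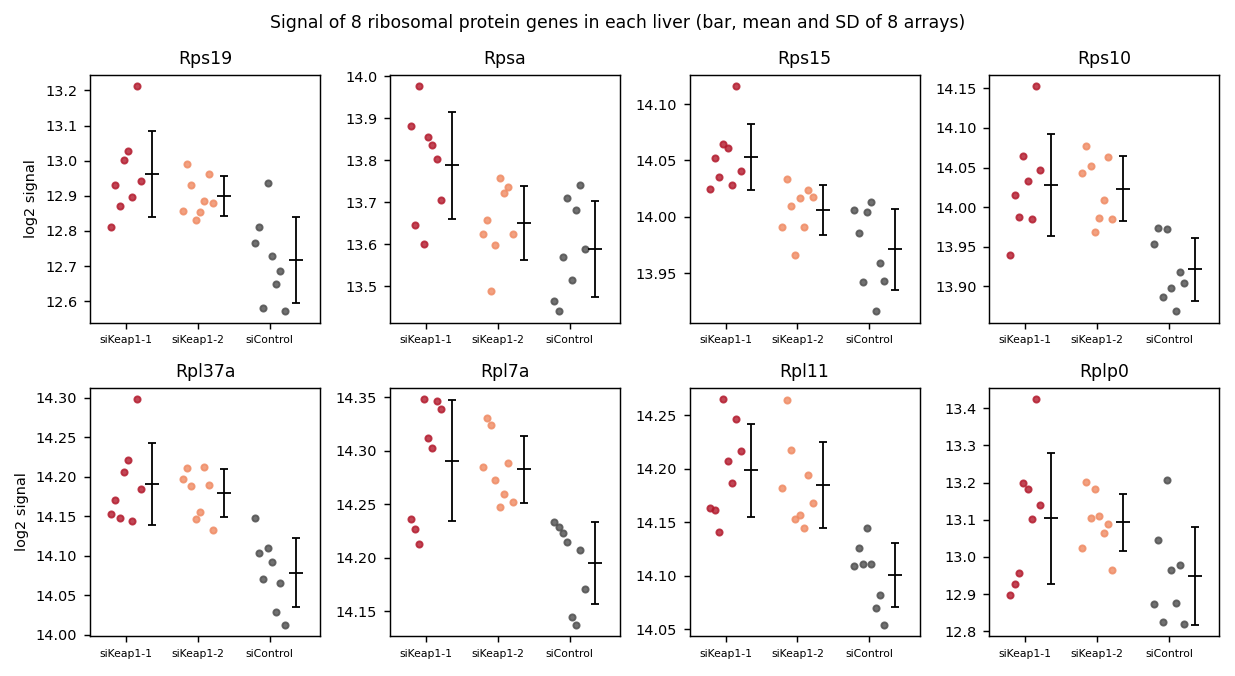
Log2 signal (vertical) of 8 members in each liver, with siKeap1-1, siKeap1-2 and siControl from left to right; points are arrays and bars the mean and SD of 8. Rps15 with siKeap1-1 and Rpl7a with siKeap1-2 do not overlap with siControl, and the vertical scales differ between genes.

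In 1 member each, no array overlapped with siControl. With siKeap1-1 this was Rps15, a head protein near the decoding centre, with 14.02, 14.05 and 14.12 as lowest, median and highest, against 13.92, 13.97 and 14.01 with siControl (difference 0.082 ± 0.037 SE, limma adjusted p = 0.186). With siKeap1-2 it was Rpl7a, a large subunit protein, with 14.25, 14.28 and 14.33, against 14.14, 14.21 and 14.23 with siControl (0.088 ± 0.040, adjusted p = 0.211). Over all probe sets, 1.45% were apart in this way with siKeap1-1 and 1.21% with siKeap1-2, so that 1 of 50 (2%) is near the background. Both differences are about 1.06-fold and failed the adjustment.

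Rpl37a, a large subunit zinc-finger protein, was the reference gene of the RT-qPCR in this study, so that its own behaviour bears on values set against it. It had 14.14, 14.18 and 14.30 with siKeap1-1, 14.13, 14.19 and 14.21 with siKeap1-2 and 14.01, 14.08 and 14.15 with siControl. In 6 of 8 siKeap1-1 arrays the signal lay above all siControl arrays, but the groups overlapped. The difference was 0.11 ± 0.040 (SE) with siKeap1-1 (adjusted p = 0.0817) and 0.10 ± 0.040 with siKeap1-2 (adjusted p = 0.142), with upper ends of the 95% interval at 0.19 and 0.18. A second bright probe set gave 0.11 ± 0.048 (adjusted p = 0.163) and 0.13 ± 0.048 (adjusted p = 0.11). With trend and robust moderation the same differences passed, at adjusted p = 0.00672 and 0.0208.

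Rplp0, the base of the P stalk that recruits translation factors to the large subunit and another common reference gene, had 12.90, 13.12 and 13.42 with siKeap1-1, 12.97, 13.10 and 13.20 with siKeap1-2 and 12.82, 12.92 and 13.21 with siControl. Its difference was 0.15 ± 0.071 with siKeap1-1 (adjusted p = 0.187) and 0.14 ± 0.071 with siKeap1-2 (adjusted p = 0.251). Only 1 of 8 siKeap1-1 arrays lay above every siControl array. Of the other P stalk proteins, Rplp2 did not pass in any comparison, and Rpl12, which binds at the stalk base, had the lowest difference of all members with siKeap1-2, -0.22 ± 0.14 (adjusted p = 0.421). Its probe set is dim and spanned 7.51 to 7.97 in siKeap1-2 livers and 7.67 to 8.59 in siControl livers.

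Rpl11, which with 5S rRNA can bind and inhibit Mdm2, had 14.14, 14.20 and 14.26 with siKeap1-1, 14.14, 14.17 and 14.26 with siKeap1-2 and 14.05, 14.11 and 14.14 with siControl. In 7 of 8 siKeap1-1 arrays it lay above all siControl arrays. The difference was 0.097 ± 0.039 with siKeap1-1 (adjusted p = 0.124) and 0.084 ± 0.039 with siKeap1-2 (adjusted p = 0.219). Rps10, at the mRNA entry side of the small subunit head, had 13.94, 14.02 and 14.15 with siKeap1-1 and 13.87, 13.91 and 13.97 with siControl (0.11 ± 0.042, adjusted p = 0.114). Rps7, a small subunit body protein, spanned 13.75 to 13.89 in siKeap1-1 livers and 13.62 to 13.78 in siControl livers (0.12 ± 0.041, adjusted p = 0.0755). Rps19, Rps10, Rps7, Rpl11, Rps24 and Rps26 are the measured members of a list of 9 anaemia genes, which is not complete. Of these 6, 1 (Rps19) passed with siKeap1-1 (16.7%, against 9.49% of all genes), and all 6 had a higher mean than with siControl, as had 39 of the 50 members. Rps28, another gene of this anaemia outside the list, gave -0.035.

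Rps6, the small subunit protein phosphorylated by the S6 kinases, had 10.52, 10.67 and 10.86 with siKeap1-1, 10.35, 10.57 and 10.81 with siKeap1-2 and 10.45, 10.55 and 10.64 with siControl. The difference was 0.12 ± 0.065 with siKeap1-1 (adjusted p = 0.263) and 0.018 ± 0.065 with siKeap1-2 (adjusted p = 0.914). Fau, made as a fusion with a ubiquitin-like protein and lining the mRNA path, differed by 0.028 ± 0.064 (adjusted p = 0.85) with siKeap1-1 and by 0.11 ± 0.064 (adjusted p = 0.328) with siKeap1-2. Of the proteins around the catalytic site, Rpl8 differed by 0.094 with siKeap1-1 and 0.087 with siKeap1-2, and of the exit tunnel proteins Rpl19 by 0.077 and 0.068, and neither passed. Rps27, whose probe set is dim, spanned 7.46 to 8.33 in siKeap1-1 livers and 7.46 to 7.88 in siKeap1-2 livers, and its difference between them, 0.17 (adjusted p = 0.675), was among the 5 with the smallest unadjusted p there.

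Some paralogs can replace a core protein in some ribosomes, and none of the 6 measured passed by its brightest probe set. Rpl22l1 had 11.59, 12.14 and 12.31 with siKeap1-1 and 11.94, 12.23 and 12.42 with siControl (difference -0.16 ± 0.095, adjusted p = 0.349), and it is the lowest difference of any member with siKeap1-1. Rpl7l1 differed by -0.033 ± 0.080 with siKeap1-1 and -0.13 ± 0.080 with siKeap1-2. Its other probe sets gave -0.20 and -0.22 with siKeap1-1 (limma, adjusted p = 0.0149 and 0.0816). With siKeap1-2 they gave -0.12 and -0.17 (limma, adjusted p = 0.182 and 0.21). Rps27l, a target of p53, was bright and flat, with differences of 0.012 and -0.0089. Rpl3l, known from muscle, Rpl39l, known from the testis, and Rps4l were dim, with differences between -0.022 and 0.12 from siControl.

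Other probe sets of the members seldom passed. The 50 members own 106 probe sets, several for 24 genes and 1 for 26. Of the 106, 4 were called higher and 2 lower in siKeap1-1 livers, 0 and 1 in siKeap1-2 livers, and 0 and 0 between the siRNAs. This is 5.66% with siKeap1-1 and 0.943% with siKeap1-2, where 8.99% and 6.1% of all probe sets were called. Beside those of Rps19 and Rpsa these were a second one of Rpl7l1 (-0.20, adjusted p = 0.0149), a dim one of Rps10 (-0.42, adjusted p = 0.0447), a dim pair of Rps20 (0.50 and 0.46, adjusted p = 0.0496 and 0.036) and, with siKeap1-2, a dim one of Rps24 (-0.51, adjusted p = 0.0293). The brightest probe sets of Rps10, Rps20 and Rps24 gave 0.11, -0.00024 and 0.031 in the same comparisons, so that probe sets of 1 gene disagreed. Rpsa's second probe set, dim at 4.39, gave 0.16 (adjusted p = 0.362). Of 110 probe sets that name a ribosomal protein gene together with other genes, siKeap1-1 gave 7 higher and 3 lower (9.09%), and siKeap1-2 gave 3 and 1 (3.64%).

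The array also carries control probe sets for 18S rRNA, the RNA of the small subunit, and their signal differed between the groups. The mean of the 3 probe sets was 7.40 ± 0.18 (SD, n = 8) with siKeap1-1 and 6.84 ± 0.33 (n = 8) with siControl, a difference of 0.56 (exact permutation test, two-sided, p = 0.000932, adjusted over 18 such comparisons 0.00932). With siKeap1-2 it was 7.36 ± 0.13, higher than siControl by 0.52 (exact permutation test, p = 0.00109, adjusted 0.00932), and between siKeap1-1 and siKeap1-2 the difference was 0.041 (exact permutation test, p = 0.601). The middle probe set, the brightest of the 3, differed by 1.24 with siKeap1-1 and 1.18 with siKeap1-2 (exact permutation test, adjusted p = 0.0196 and 0.00932). The 3′ probe set differed by 0.23 and 0.21 (exact permutation test, adjusted p = 0.0667 and 0.154) and the 5′ probe set by 0.21 and 0.16 (exact permutation test, adjusted p = 0.0972 and 0.126), and neither passed. The amount of 18S rRNA in the liver and its share in the labelled RNA cannot be told apart on these arrays.

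Over the replicate numbers the mean 18S signal was uneven in some groups. In siKeap1-1 arrays it spanned 7.10 to 7.37 in numbers 1 to 3 and 7.43 to 7.60 in numbers 4 to 8. In siKeap1-2 arrays it spanned 7.31 to 7.49 and 7.13 to 7.53, with no such division, and in siControl arrays 7.05 to 7.32 and 6.41 to 6.94. This division was chosen after the values were seen, the labels name no batch, and the values are a description with no test. The siKeap1-1 difference was 0.056 over arrays 1 to 3 and 0.86 over arrays 4 to 8, and the siKeap1-2 difference 0.25 and 0.68. The 3′ probe set did not follow it: in numbers 1 to 3 it spanned 6.42 to 6.48 in siKeap1-1 arrays and 5.97 to 6.26 in siControl arrays, and in numbers 4 to 8 its mean was 6.29 and 6.13.

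The 5′ minus 3′ signal of Gapdh, a measure of RNA integrity, was higher than in siControl by 0.14 with siKeap1-1 and 0.14 with siKeap1-2. For beta-actin the differences were 0.10 and 0.11. None passed (exact permutation test, adjusted p = 0.0667 and 0.0627 for Gapdh, 0.19 and 0.154 for beta-actin). The Gapdh 5′ minus 3′ signal was lowest in the siControl arrays 4 to 8, between -1.47 and -1.33, against -1.28 to -1.06 in all other arrays. That of beta-actin did not separate them: it spanned -3.13 to -2.83 in siControl arrays 4 to 8, overlapping with the -3.04 to -2.77 in siKeap1-1 arrays 1 to 3, the -3.02 to -2.73 in siKeap1-2 arrays 4 to 8 and the -3.05 to -2.80 in siControl arrays 1 to 3.

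**Figure D4:**
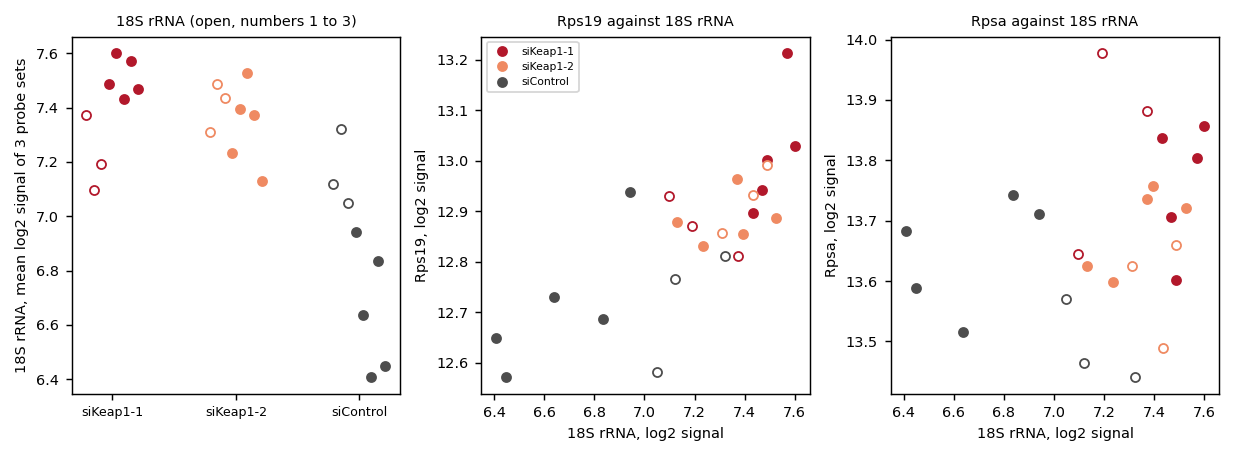
Left, mean log2 signal of 3 probe sets for 18S rRNA (vertical) in each array by group, open for replicates 1 to 3 and filled for 4 to 8; middle and right, log2 signal of Rps19 and Rpsa (vertical) against it (horizontal). The siControl arrays 4 to 8, between 6.41 and 6.94, lie below all other arrays.

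The called members were set beside the 18S signal in further fits. Within groups, the slope of Rps19 was 0.23 ± 0.11 (SE) log2 units per log2 unit of 18S (limma, unadjusted p = 0.0392, adjusted p = 0.34), and that of Rpsa -0.0996 ± 0.12 (adjusted p = 0.782). With the 18S signal as a covariate, the siKeap1-1 difference of Rps19 was 0.12 (adjusted p = 0.582), against 0.25 without it, and that of Rpsa 0.25 (adjusted p = 0.174), against 0.20 without it. Over arrays 1 to 3 alone, Rps19 differed by 0.15 (adjusted p = 0.526) and Rpsa by 0.34 (adjusted p = 0.196). Over arrays 4 to 8 alone, Rps19 differed by 0.30 (adjusted p = 0.0259) and Rpsa by 0.11 (adjusted p = 0.403). With Gapdh and beta-actin 5′ minus 3′ signal as a covariate, Rps19 differed by 0.20 (adjusted p = 0.0797) and Rpsa by 0.32 (adjusted p = 0.000343). The part of the 18S signal and of RNA integrity in the Rps19 and Rpsa differences was not tested beyond these fits.

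Across the family, the 18S signal within groups went with few members. The slope passed for 1 of 50, Rpl3l at 0.51 ± 0.13 (adjusted p = 0.0456), where 1.57% of all probe sets passed, and its signal lies below the median of all probe sets. It passed no longer when any 1 array was left out other than siKeap1-1 replicates 1, 2 and 5, siKeap1-2 replicate 3 and siControl replicate 7. With the middle 18S probe set alone, 0 of 50 passed, against 2.69% of all probe sets. At an unadjusted p under 0.05 the counts were 6 and 7. The median slope of the members was 0.075, against -0.0032 over all probe sets, and 36 of 50 were above 0. Whether the slope differed between groups was tested in limma for each pair, and 0% of all probe sets and 0 members passed in any of them; at an unadjusted p under 0.05 it was 9 members for siKeap1-1 against siControl, 0 for siKeap1-2 against siControl and 2 between the Keap1 siRNAs.

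Lists of genes that work with the ribosomal proteins were counted in the same fit, with no test of a list against another. Of 51 measured ribosome biogenesis genes, siKeap1-1 gave 10 higher and 1 lower (21.6%, against 9.49% of all genes), and siKeap1-2 gave 2, both higher (3.92%, against 6.6%). The largest were Nop58 (0.46 ± 0.11, adjusted p = 0.00736), which guides rRNA methylation, Gar1 (0.40 ± 0.13, adjusted p = 0.0428) and Nhp2 (0.40 ± 0.092, adjusted p = 0.00744), which serve rRNA pseudouridylation, and Nip7 (0.36 ± 0.094, adjusted p = 0.0148), which acts in large subunit assembly. The 1 lower gene was Heatr1 (-0.34 ± 0.068, adjusted p = 0.00245), named after its value was seen. The pair called with siKeap1-2 was Nhp2 (0.31) and Ebna1bp2 (0.21).

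Of 18 other genes with TOP mRNAs, 3 were higher with siKeap1-1 (16.7%, against 9.49% of all genes), the poly(A)-binding protein Pabpc1 (0.31 ± 0.084, adjusted p = 0.0208) and the initiation factor subunits Eif3f (0.24) and Eif3h (0.19), and with siKeap1-2 Pabpc1 was higher (0.29) and Hnrnpa1 lower (-0.39), which is 11.1%, against 6.6% of all genes. Of 25 initiation factor genes, 3 were higher with siKeap1-1 (12%), Eif2b3 (0.27), Eif3k (0.20) and Eif1ax (0.19), and 0 with siKeap1-2 (4 at an unadjusted limma p under 0.05). Of 19 genes that control ribosomal protein synthesis, 3 passed with siKeap1-1 (15.8%): higher were Eif4ebp1 (0.31 ± 0.092, adjusted p = 0.0315) and Akt1s1 (0.27 ± 0.053, adjusted p = 0.00167), which restrain cap-dependent translation and mTOR, and Sp1 was lower (-0.23). With siKeap1-2, 0 of the 19 passed in limma, and before adjustment 1 gene on each side had a p under 0.05. Of 9 usual reference genes, Hprt was higher (0.32) and Gusb lower (-0.32) with siKeap1-1 (22.2%), and Gusb lower (-0.30) with siKeap1-2 (11.1%).

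The 76 mitochondrial ribosomal protein genes, whose products build the separate ribosome of the mitochondrion, had 7 called with siKeap1-1, all higher (9.21%), and with siKeap1-2 had 4 called higher and 2 lower (7.89%), near the 9.49% and 6.6% of all genes. The largest with siKeap1-1 were Mrpl54 (0.38 ± 0.068, adjusted p = 0.000794), Mrps10 (0.37), Mrps18a (0.29) and Mrps35 (0.27). Their median difference was 0.043 with siKeap1-1 and 0.021 with siKeap1-2, close to the 0.048 and 0.037 of the cytosolic genes. Between siKeap1-1 and siKeap1-2, 0 genes of any of these lists passed in limma; at an unadjusted p under 0.05, 9 mitochondrial ribosomal protein genes were higher and 0 lower, and 9 biogenesis genes were higher and 1 lower.

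**Figure D5:**
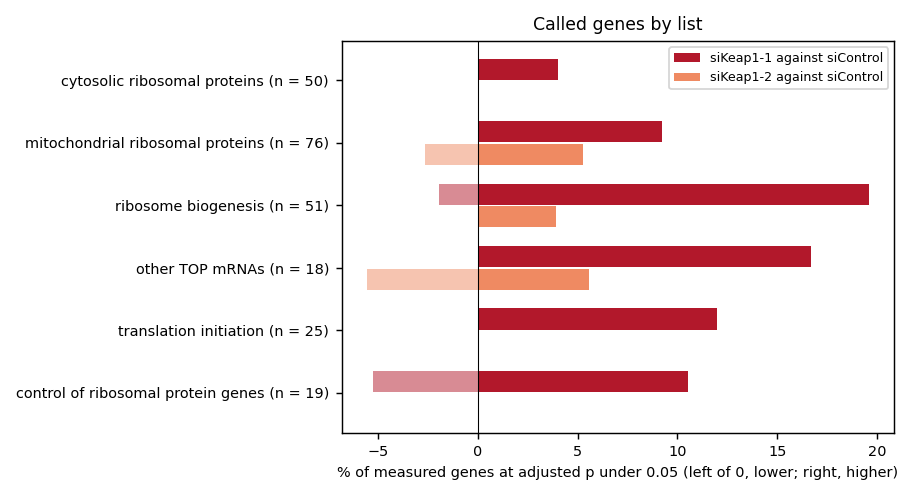
Share of measured genes called at an adjusted p under 0.05 (horizontal, %; right of 0 higher, left of 0 lower than siControl) in 6 lists of genes, with siKeap1-1 above siKeap1-2. Cytosolic ribosomal proteins have 4% with siKeap1-1 and 0 with siKeap1-2, and ribosome biogenesis has the longest bar, 10 of 51 higher with siKeap1-1.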

How the data were processed

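Total RNA of 24 livers, 8 per siRNA, was hybridised to Affymetrix mouse genome arrays of 45101 probe sets. The authors deposited log2 values normalised by RMA (version not given in the sources used here), and these log2 values were used with no pseudocount or filter. All columns were mapped to a sample (0 were not). Control probe sets (64) were left out, which left 45037, and 34945 name 1 gene in the platform annotation. Groups were compared in 1 limma fit (3.58.1, R 4.3.3; lmFit and eBayes over 3 groups). Each gene was represented by its brightest probe set over 24 arrays. 18S rRNA slopes were fitted within groups on the mean of 3 probe sets. 18S and integrity values were compared by exact permutation (12870 splits, two-sided). The fits were tested on simulated data.

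Members and lists were chosen with earlier results of these data known. Named members were those called, the 5 with the smallest unadjusted p where fewer than 5 were called, the paralogs, Rpl37a, Rplp0, Rps6, Rpsa and Fau, and the largest difference in each role list; of other lists, up to 4 called genes. Replicates are taken as separate mice from the methods, since the titles give only a replicate number. The number of arrays limits precision. Alternatives were the gene's other probe sets, scaling, filter, moderation, weights, block, covariates and thresholds. After the group means were removed, same-numbered arrays of different groups correlated above 0.1 in 9 of 24 pairs. Arrays of different numbers were not correlated, so whether same-numbered arrays deviated together was not tested. Promoter sequences and names are RefSeq's (GRCm38.p6).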

Additional observations from a re-analysis of the deposited data

Results flagged for a closer look

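Of 84 groups of 8 arrays tested for a single array far from the rest (22 named members and 6 control measures in each siRNA group), 5 had one, and chance gives about 1 in 20. In siKeap1-1, replicate 7 was high for Rps15 (14.12, the others between 14.02 and 14.06). In siKeap1-2, replicate 4 was low for Rps27l (13.69, the others between 13.87 and 13.96). In siControl, replicate 8 was high for Rpl7l1 (11.30, the others between 11.05 and 11.16) and for Rpl39l (4.92, the others between 3.27 and 4.02), and replicate 4 was high for Rpl8 (13.05, the others between 12.74 and 12.87).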

How the results depend on the processing

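Between siRNA groups, calls over all probe sets were counted for the main fit, trend and robust moderation and the replicate block. For 18S slopes they were counted for the main fit and the middle probe set. Counts of members under every other setting are a description with no background beside them. Members called with siKeap1-1 numbered 2. The count was 8 with trend and robust moderation, 6 (of 47 tested) with probe sets above the median signal only, and 4 with a gene's probe sets averaged. It was 1 with the second brightest probe set (Rpl7l1), array medians subtracted, quantile normalisation, only the 2 groups compared, the 5′ minus 3′ covariate, an adjusted p under 0.01 or only arrays numbered 4 to 8. It was 0 with 18S or its middle probe set as a covariate, with fold over 2 and p under 0.01, and with only arrays numbered 1 to 3. Members called with siKeap1-2 numbered 0, 5 with trend and robust moderation and 1 (Rps19) with quantile normalisation, the signal filter, array weights or the first residual component. Between siKeap1-1 and siKeap1-2 the count stayed at 0 in all of these. Leaving out 1 array gave 1 to 2 members with siKeap1-1, 0 to 1 with siKeap1-2 (1, Rps19, without siKeap1-1 replicate 7 or siControl replicate 4), 0 to 0 between them and 0 to 1 with an 18S slope. The 1 member with an 18S slope, Rpl3l, was lost (0) under every other setting run for it, which were averaged probe sets, array medians, quantile normalisation, the 5′ minus 3′ covariate, the replicate block, the middle probe set and the arrays 1 to 3 against 4 to 8 as a term, and without any 1 of 19 arrays. The cause was not tested. The 18S level differed by 0.056 and 0.25 from siControl over arrays 1 to 3 alone, where 3 arrays a group cannot pass, and by 0.18 between siKeap1-1 and siKeap1-2 over arrays 4 to 8 alone; this division came from the 18S values, so these are no test. The settings with the middle 18S probe set or with the division at number 3 were chosen after seeing the data.

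Whether replicate numbers shared between groups pair the mice was not tested. Correlations of same-numbered arrays lay between -0.17 and 0.28, with no differently numbered pairs beside them. With the replicate number as a block, 1 member passed with siKeap1-1 (Rps19; Rpsa adjusted p = 0.0621), 0 with siKeap1-2 and 0 between them, and over all probe sets 4066, 2606 and 44 passed, against 4049, 2748 and 73 without it. Signals near the top of the array and dim probe sets limit what could be measured.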
